A study of Homo sapiens with 12 samples.

Results

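Solute carrier (SLC) genes encode membrane proteins that move amino acids, sugars, ions, metals, vitamins, lipids and metabolites across the plasma membrane and the membranes of mitochondria, lysosomes and the Golgi. Most carriers move a solute down its own gradient or couple it to the gradient of sodium, protons or another solute. In the proximal tubule of the kidney they are known for taking back filtered glucose, amino acids, phosphate and bicarbonate and for handling organic anions and cations.

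Members were all genes whose symbol is SLC plus a number and whose probe set, mapped to that gene alone and highest in mean signal, had a mean of at least 4 on the log2 scale over the 12 arrays. SLC7A11, SLC3A1, SLC3A2, SLC2A1, SLC30A1, SLC6A16, SLC22A6 and SLC22A8 were left out of the set. This gave 196 members among 10791 genes tested. The array named 376 SLC symbols, of which 172 fell under the filter, and 155 of those stayed under 4 on every array. Just inside the filter, 8 members had means of 4 to 4.5, and just outside it 13 SLC genes had means of 3.5 to 4. Of the 172 genes, 9 reached 4 in the mean of at least 1 group and were still not tested. SLC16A14, SLC25A34, SLC25A45, SLC35E4, SLC45A2, SLC5A11 and SLC6A3 did so only with Aa, and SLC33A2 and SLC35F3 only in controls. The filter used the mean over all arrays, and 193 of the 196 members were at 4 or more in all 4 group means. SLC60A1, SLC29A4 and SLC9A8 were the other members. The symbol rule also took in 8 names that are not carriers: the antisense and divergent transcripts SLC67A1-AS, SLC16A1-AS1, SLC12A2-DT and SLC9A3-OT1, the pseudogene SLC71A3P, and SLC4A1AP, SLC7A6OS and SLC2A4RG, which were named after a neighbouring or interacting gene.

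RNA came from HK-2 cells, 1 immortalised line of human proximal tubule epithelium, cultured in a defined medium with epidermal growth factor, hydrocortisone, insulin, transferrin and selenite. Nearly confluent wells received Aa at a low dose or the control vehicle for 24 h or 48 h, which made 4 groups of 3 arrays. What Aa stands for, how much was given and in which vehicle is not given in the sources used here. Replicates are labelled biological, but nothing says whether they were separate cultures, and p-values therefore cover only the spread among these samples. All values are deposited log2 intensities, a change is Aa minus control on the log2 scale, and SE is its standard error from limma. "Rose" and "fell" mark genes that passed 0.05 after Benjamini-Hochberg adjustment across the 10791 genes. Unless the block is named, the test left out the replicate number, which the block adds to the model. In a bulk sample, fewer cells of a type and less RNA per cell cannot be told apart.

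All 5 epithelial markers and 3 of 10 proximal tubule markers had a mean of at least 4, as did 2 of 6 fibroblast markers. No distal nephron, endothelial or leukocyte marker on the array reached that mean, 0 of 4, 0 of 5 and 0 of 4. Over all 12 arrays their summed signal, on the log2 scale, ran from 4.44 to 4.69, from 5.29 to 5.44 and from 4.28 to 4.37. The array medians lay between 2.93 and 3.01. The summed signal of the fibroblast list lay between 11.93 and 12.47 in 24 h controls and 11.70 and 12.13 with Aa, and between 11.88 and 12.14 in 48 h controls and 11.23 and 11.84 with Aa. The 28S ribosomal RNA probe sets were higher with Aa, at 7.28 ± 0.22 against 6.37 ± 0.08 at 24 h and 7.56 ± 0.25 against 6.74 ± 0.16 at 48 h (SD, n = 3). Of the proximal tubule markers tested, CDH6 (kidney cadherin) fell at 48 h by 1.48 (SE 0.24, adjusted p = 0.000975) and PAX8 by 0.45 (SE 0.11, adjusted p = 0.0101), and DPP4 passed the test at neither time. The 24 h change of CDH6 was -0.49 (adjusted p = 0.17, or 0.00988 with the block). The summed signal of that list lay between 13.49 and 13.89 in 24 h controls and 13.22 and 13.68 with Aa, and between 13.47 and 13.67 in 48 h controls and 12.70 and 13.32 with Aa. That of the epithelial list was 14.76 to 14.91 against 14.46 to 14.64 at 24 h and 14.55 to 14.80 against 14.55 to 14.78 at 48 h. At 24 h KRT19, an epithelial keratin, and COL1A1, a fibroblast collagen, fell (-0.71 and -0.85, adjusted p = 0.0141 and 0.0276). The part of the markers and of 28S RNA in the changes of SLC genes was not tested.

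At 24 h, 18 SLC genes rose and 32 fell. They were 25.5% of the members, beside 23.1% of all genes tested, so the share of SLC genes called was close to that of the array as a whole. At 48 h, 28 rose and 49 fell, which was 39.3% of members beside 37.8% of all genes. By direction, 10.3% of all genes rose and 12.8% fell at 24 h, and 17.8% rose and 20.1% fell at 48 h. The median change of the members was -0.05 at 24 h and -0.07 at 48 h, and of all genes -0.02 at 24 h. With the replicate number as a block the counts were 30 and 54 at 24 h and 43 and 63 at 48 h, 42.9% and 54.1% of members, beside 41.3% and 54.8% of all genes (18.5% higher and 22.8% lower at 24 h, 26.7% higher and 28.1% lower at 48 h). Without replicate 1 in all groups the limma counts were 5 and 8 at 24 h and 10 and 20 at 48 h. Together these were 6.63% and 15.3% of members, beside 4.97% and 14.4% of all genes. Without replicate 3 the counts were 7 and 12 at 24 h and 15 and 36 at 48 h. These were 9.69% and 26% of members, beside 7.64% and 21.5% of all genes. Among single arrays, leaving out control replicate 1 or Aa replicate 3 at 24 h gave 9 and 11 rises at 24 h in place of 18. Calls in either direction were then 16.8% and 17.9% of members, beside 16.3% and 16% of all genes. Leaving out Aa replicate 3 at 48 h gave 16 rises at 48 h in place of 28. In that analysis 26% of members were called at 48 h, beside 27.8% of all genes.

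Changes of at least 2-fold were more often falls: 6 members rose and 13 fell by that much at 24 h, and 8 rose and 22 fell at 48 h. The 9 SLC genes under the filter that reached 4 in a group mean, most of them only with Aa, are not in these counts. Over all genes 2.47% rose and 3.81% fell at least 2-fold at 24 h, and 4.57% and 6.72% at 48 h. Of the 193 members at 4 or more in all 4 group means, 5 rose and 12 fell by that much at 24 h, and 7 and 21 at 48 h. Of the 10559 such genes on the array, 225 and 355 did so at 24 h, and 445 and 650 at 48 h. Of the members, 40 were called at both times, each in 1 direction, 15 as rises and 25 as falls. Over all genes 16.8% were called in 1 direction at both times. The 24 h calls overlapped the 48 h calls by 80% of the 24 h list and 51.9% of the 48 h list, near the 73.6% and 45% of all genes. A further 10 were called at 24 h alone, 37 at 48 h alone and 109 at neither time, so that 87 members were called at 1 time or both, with 43.9% of all genes called so. The 3 Aa arrays did not overlap the 3 control arrays in 77 members at 24 h and 94 at 48 h, with a background of 40.5% and 48.4% of all genes.

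**Figure D1:**
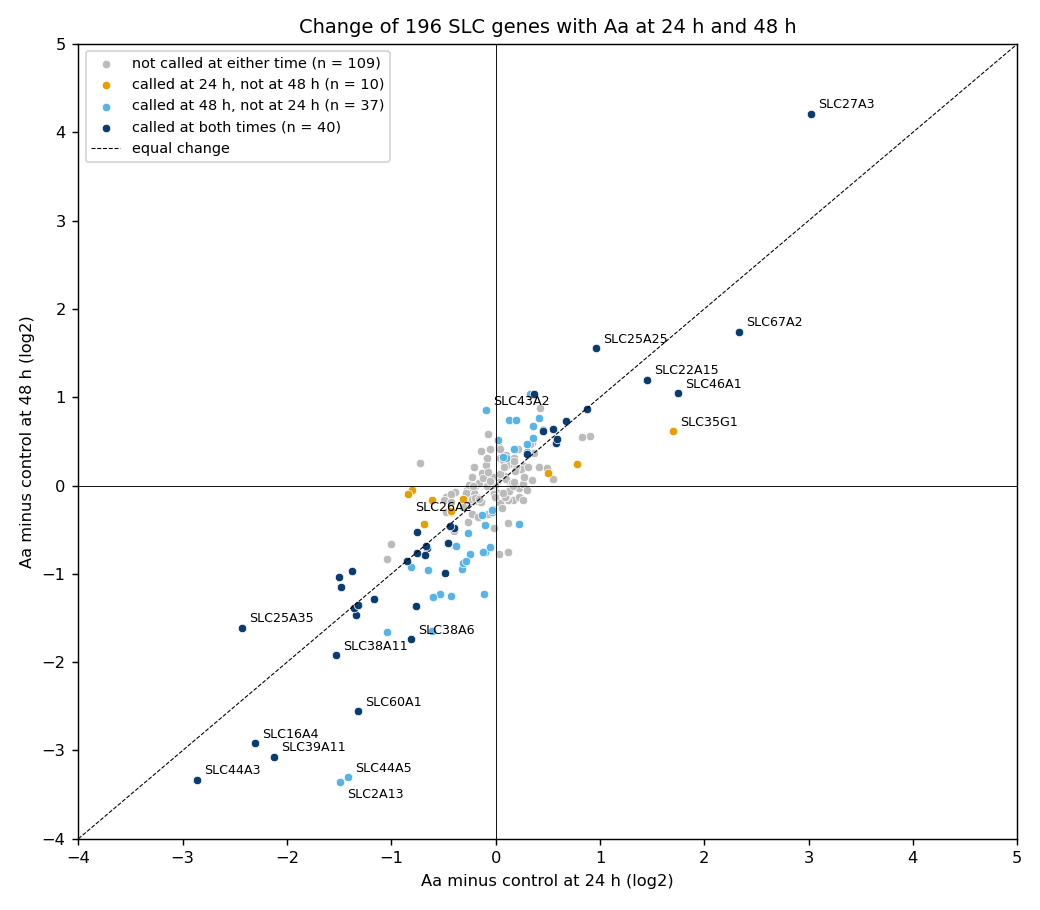
Change with Aa at 48 h (y axis, log2) against change at 24 h (x axis, log2) for each of the 196 SLC genes. Colours give the times at which a gene was called, the dashed line marks equal change, and the 40 genes called at both times lie at the lower left and upper right, from SLC44A3 to SLC27A3.

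The largest single rise was that of SLC27A3, a member of the fatty acid transport protein family that activates fatty acids with coenzyme A. Its 24 h controls gave 4.47, 4.51 and 4.61, and its 24 h Aa arrays 8.37, 6.88 and 7.40. The 48 h controls gave 4.51, 4.51 and 3.14, and the 48 h Aa arrays 8.55, 7.89 and 8.35. Every Aa array was above every control array, and the controls lay near the filter value of 4, so the size of the fold is uncertain. The rise was 3.02 (SE 0.41, adjusted p = 0.000703) at 24 h and 4.21 (SE 0.41, adjusted p = 7.16e-05) at 48 h, 8.10-fold and 18.5-fold. The call held in all 26 alternative analyses that measured it at either time. Its only usable probe set is of a kind that can match several transcripts.

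SLC16A4 encodes a member of the monocarboxylate transporter family, and it fell on every Aa array. Its 24 h controls were at 8.68, 8.75 and 8.67 and the Aa arrays at 6.58, 6.32 and 6.26. At 48 h the controls were at 9.57, 9.36 and 9.18 and the Aa arrays at 6.45, 6.85 and 6.06. The groups lay far apart at both times, and the fall was 2.31 (SE 0.18, adjusted p = 3.79e-05) and then 2.92 (SE 0.18, adjusted p = 7.63e-06) in size, 4.96-fold and 7.55-fold lower with Aa. SLC39A11, a zinc carrier of the ZIP family, had controls of 7.02, 6.81 and 6.62 and Aa arrays of 4.31, 5.17 and 4.60 at 24 h. At 48 h its controls were 7.50, 7.70 and 7.34 and its Aa arrays 3.91, 5.93 and 3.48. The values of 3.91 and 3.48 are under the filter value, so the size of the 48 h fall is uncertain. Aa replicate 2 stayed nearer to the controls than the other two at both times, yet below all of them. The changes were -2.13 (SE 0.50, adjusted p = 0.0117) and -3.07 (SE 0.50, adjusted p = 0.00105), and the 24 h call was lost without replicate 1 of every group (adjusted p = 0.187) or replicate 3 of every group (adjusted p = 0.085).

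The promoter windows of these 3 genes are shown because, among members called at both times with a single window, they gave the largest rise and the 2 largest falls over both times. Each runs from 250 bases before to 50 after a RefSeq transcript start, 5′ to 3′ on the gene's strand, in the GRCh38.p14 build. Capitals mark any of 6 searched motifs on either strand. These were AP-1, searched as TGANTCA, and the cyclic AMP response element CRE, searched as TGACGTCA. The E-box that bHLH factors can bind was searched as CACGTG. The CCAAT box, named by its letters, and the GC box of Sp1-type factors, searched as GGGCGG, made 2 more. The last was the TATA box, searched as TATAAA. Motifs could overlap. SLC27A3 is on the plus strand at chr1:153775157-153775456, SLC16A4 on the minus strand at chr1:110390977-110391276 and SLC39A11 on the minus strand at chr17:73092639-73092938.
SLC27A3: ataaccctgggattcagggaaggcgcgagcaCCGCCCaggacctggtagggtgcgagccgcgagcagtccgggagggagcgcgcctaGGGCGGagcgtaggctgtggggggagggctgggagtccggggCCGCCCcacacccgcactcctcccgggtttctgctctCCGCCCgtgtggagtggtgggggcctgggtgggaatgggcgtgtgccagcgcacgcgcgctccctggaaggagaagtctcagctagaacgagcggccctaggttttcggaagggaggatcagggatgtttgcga
SLC16A4: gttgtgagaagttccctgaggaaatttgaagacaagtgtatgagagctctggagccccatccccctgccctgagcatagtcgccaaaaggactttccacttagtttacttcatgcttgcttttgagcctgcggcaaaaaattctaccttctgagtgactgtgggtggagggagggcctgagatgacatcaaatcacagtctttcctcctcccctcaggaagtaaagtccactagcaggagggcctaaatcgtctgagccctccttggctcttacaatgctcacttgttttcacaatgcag
SLC39A11: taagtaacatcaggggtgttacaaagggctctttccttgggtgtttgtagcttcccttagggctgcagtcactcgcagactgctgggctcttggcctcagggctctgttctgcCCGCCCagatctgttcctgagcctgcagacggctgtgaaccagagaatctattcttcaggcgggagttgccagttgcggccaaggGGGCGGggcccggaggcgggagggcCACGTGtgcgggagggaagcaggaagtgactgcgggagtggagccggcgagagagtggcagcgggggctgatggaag
The window of SLC27A3 holds 4 GC boxes, that of SLC39A11 holds 1 E-box and 2 GC boxes, and that of SLC16A4 holds none of the 6 motifs.

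RefSeq windows were found for 165 of the 196 members, 234 windows in all. Members had passed the signal filter, whereas the windows set beside them were not limited to the genes tested. The sets are therefore unlike, and the part of the filter in the differences was not tested. An E-box was present in 15% of the members' windows, beside 7.26% of all 35116 windows and 8.34% of the 22199 windows of protein-coding genes. A GC box was present in 66.2%, beside 45% and 56.3%. An AP-1 motif was present in 5.13%, beside 7.71% and 6.15%, and a TATA box in 5.13%, beside 11.5% and 9.47%. Members that rose at both times had 16 windows, of 13 genes, and members that fell at both times had 30, of 21 genes. A CRE was present in 2 of the 16 and 0 of the 30, beside 2.56% of the members' windows and 1.85% of all windows. A CCAAT box was present in 4 of the 16 and 5 of the 30, beside 32.9% of the members' windows and 34.6% of all windows. In the same 2 sets an AP-1 motif was in 1 and 0 windows, and an E-box in 1 and 4. A GC box was in 12 and 20, and a TATA box in 0 and 1. These counts describe letters in a window and not bound sites.

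**Figure D2:**
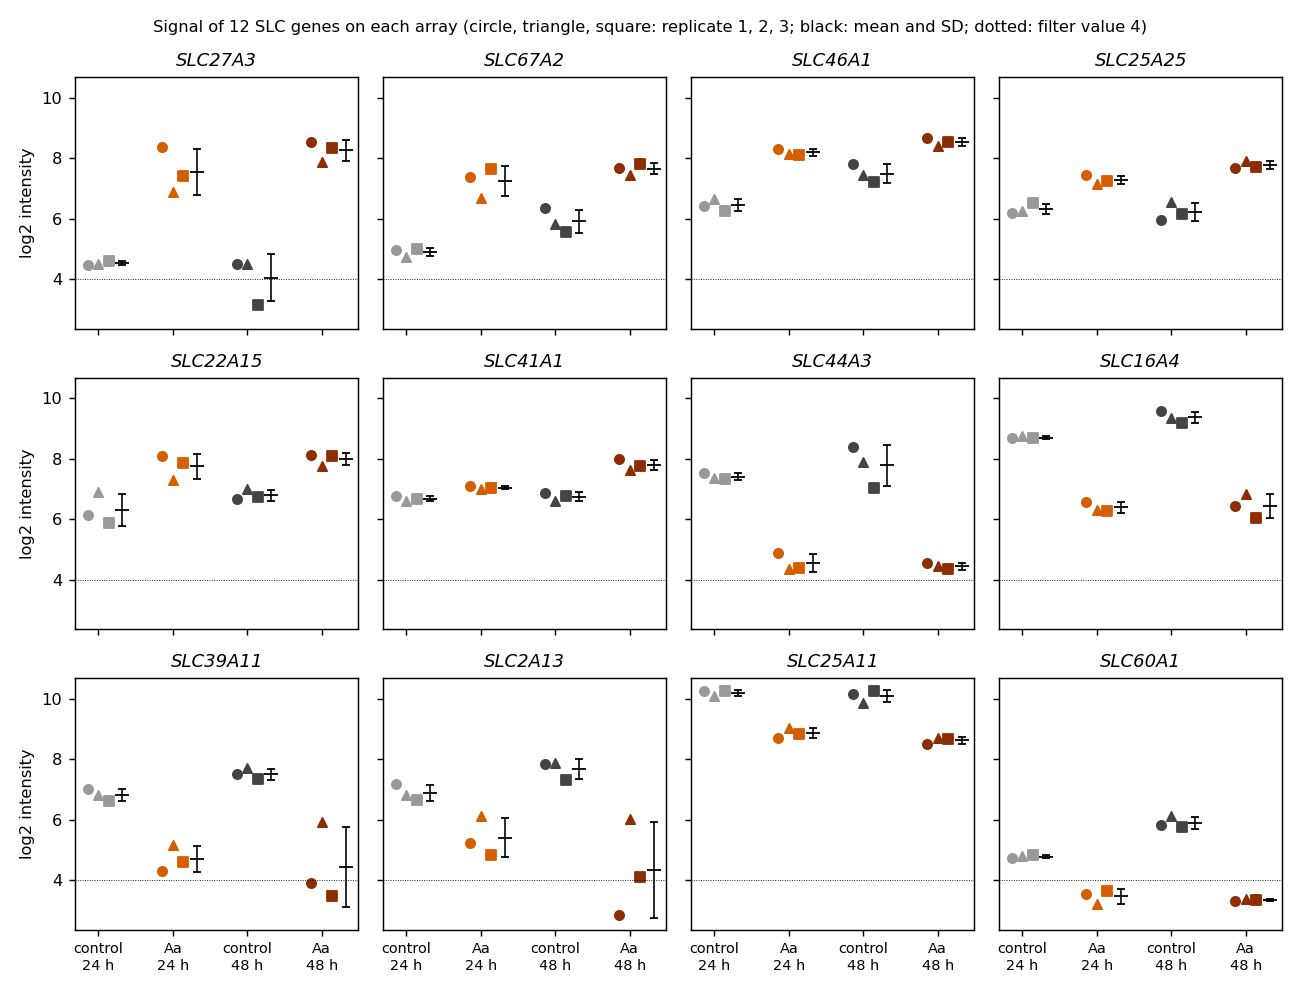
Log2 intensity (y axis) of 12 SLC genes on each array in the 4 groups (x axis); circles, triangles and squares are replicates 1, 2 and 3, black bars the mean and SD (n = 3), and the dotted line the filter value of 4. SLC27A3 sits at 6.88 to 8.55 on the Aa arrays and at 3.14 to 4.61 in controls, and SLC16A4 at 6.06 to 6.85 with Aa and at 8.67 to 9.57 in controls.

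Carriers of nucleosides, vitamins and lipids numbered 17. Of these, 2 rose and 4 fell at 24 h, and 2 rose and 7 fell at 48 h (2 and 6, then 3 and 9, with the block). Calls made up 35.3% and 52.9% of the group, beside 23.1% and 37.8% of all genes. The median change of the group was -0.31 at 24 h and -0.44 at 48 h. SLC44A3, a member of the choline transporter-like family, was at 7.53, 7.37 and 7.31 in 24 h controls and 4.89, 4.36 and 4.38 with Aa. At 48 h it was at 8.40, 7.90 and 7.03 in controls and 4.56, 4.44 and 4.34 with Aa. Aa arrays were close together and far below the controls at both times, by 2.86 (SE 0.28, adjusted p = 0.000125) and 3.33 (SE 0.28, adjusted p = 2.7e-05), 7.26-fold and 10.1-fold lower.

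SLC44A5, of the same family, was at 9.33, 9.65 and 8.49 in 48 h controls and 5.41, 7.57 and 4.58 with Aa. It fell by 3.30 (SE 0.71, adjusted p = 0.00469) at 48 h, while the 24 h change of -1.42 had overlapping arrays and an adjusted p of 0.179, or 0.0111 with the block. Its 4 probe sets past the filter were all lower at both times. The 48 h call of SLC44A5 was lost without replicate 1 of every group (adjusted p = 0.114). SLC44A1, a plasma membrane choline transporter, fell by 0.66 (SE 0.18, adjusted p = 0.0252) and 0.68 (SE 0.18, adjusted p = 0.015), but 2 of its 5 probe sets were higher with Aa. SLC44A2, another member of the family, passed the test at neither time.

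SLC46A1, the proton-coupled folate transporter of the intestine that also carries heme, moved the other way. Its controls were at 6.43, 6.65 and 6.26 at 24 h and 7.83, 7.45 and 7.20 at 48 h, and its Aa arrays at 8.31, 8.15 and 8.11 and at 8.67, 8.41 and 8.53. Aa arrays were the higher at both times, by 1.74 (SE 0.16, adjusted p = 8.59e-05) and 1.04 (SE 0.16, adjusted p = 0.000746). The other folate carrier of the group, SLC19A1 (reduced folate carrier), fell by 0.75 and 0.53 (adjusted p = 0.0108 and 0.0336). SLC19A2, a thiamine transporter, fell at 48 h alone (-0.75, adjusted p = 0.0277). SLC29A1, the equilibrative nucleoside transporter ENT1, fell at 24 h (-0.69, adjusted p = 0.0104) and missed the threshold at 48 h (-0.44, adjusted p = 0.0508, or 0.00483 with the block).

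Within the fatty acid transport protein family, SLC27A3 was the member that rose. SLC27A2, a very long chain acyl-CoA synthetase of kidney and liver, was at 9.55, 9.36 and 8.80 in 48 h controls and 7.52, 8.44 and 6.82 with Aa. It fell at 48 h by 1.64 (SE 0.43, adjusted p = 0.013), a call lost without Aa replicate 3 at 48 h (adjusted p = 0.0519). SLC27A5 fell at 48 h as well (-0.68, adjusted p = 0.0212), and SLC27A1 and SLC27A4 passed the test at neither time.

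Of 26 metal and heme carriers, 8 fell at 24 h and 12 at 48 h, while 3 and 4 rose. The share called was 42.3% and 61.5%, beside 23.1% and 37.8% of all genes. With the block, 4 rose and 12 fell at 24 h, and 7 and 13 at 48 h. The median change was -0.19 and -0.23. SLC39A4, the ZIP4 zinc importer whose loss causes acrodermatitis enteropathica, was at 9.43, 9.05 and 9.53 in 24 h controls and 7.81, 7.96 and 8.18 with Aa. At 48 h the values were 9.01, 8.69 and 9.39 against 7.56, 7.51 and 7.87. The groups did not overlap, and SLC39A4 fell by 1.35 (SE 0.19, adjusted p = 0.000899) and 1.38 (SE 0.19, adjusted p = 0.00045).

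Other ZIP carriers went both ways. SLC39A13, a zinc carrier of the secretory pathway, fell by 1.17 and 1.29 (SE 0.24, adjusted p = 0.00556 and 0.00197), and SLC39A8, which imports zinc and manganese, by 0.67 and 0.79 (SE 0.18, adjusted p = 0.0208 and 0.00631). SLC39A10, a plasma membrane zinc importer, rose by 0.46 (SE 0.12, adjusted p = 0.0161) and 0.62 (SE 0.12, adjusted p = 0.0022). Its 24 h call was lost without replicate 1 of either 24 h group (adjusted p = 0.0634 for Aa and 0.0642 for control). SLC39A6 rose at 48 h by 0.31 (SE 0.09, adjusted p = 0.023), which any of 4 single 48 h arrays, replicates 1 and 3 of Aa and 1 and 2 of control, could undo (adjusted p up to 0.082). SLC39A9 also rose at 48 h (0.32, adjusted p = 0.0179), and its other probe set moved the other way. Of the 11 ZIP genes, 1 rose and 4 fell at 24 h, and 3 rose and 4 fell at 48 h. This was 45.5% and 63.6% of them, beside 23.1% and 37.8% of all genes.

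SLC48A1, which moves heme out of endolysosomes, was at 7.33, 6.51 and 7.11 in 24 h controls and 5.47, 5.59 and 5.39 with Aa. At 48 h it was at 7.26, 6.73 and 7.10 against 5.96, 6.02 and 6.00. The Aa arrays were tightly grouped below the controls, and the gene fell by 1.50 (SE 0.19, adjusted p = 0.00054) and 1.04 (SE 0.19, adjusted p = 0.00221). Of its 3 probe sets, 1 stayed near 0 change, with -0.03 and 0.09. SLC49A4, of a family with heme carriers, fell by 0.75 and 0.77 (SE 0.13, adjusted p = 0.00231 and 0.00116).

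Iron carriers went both ways at 48 h. SLC40A1 (ferroportin), the exporter of iron from cells, fell by 0.95 (SE 0.32, adjusted p = 0.0376), and its 24 h change of -0.65 passed only with the block (adjusted p = 0.17, or 0.0237). SLC11A2 (DMT1), the proton-coupled importer of ferrous iron, fell by 0.77 (SE 0.20, adjusted p = 0.0125). Of the mitoferrins, which bring iron into mitochondria, SLC25A28 rose by 0.47 (SE 0.17, adjusted p = 0.045) and SLC25A37 changed by -0.20 (adjusted p = 0.424).

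The magnesium carrier family SLC41 split. SLC41A1 was at 6.87, 6.60 and 6.78 in 48 h controls and 7.98, 7.64 and 7.75 with Aa, and rose by 1.04 (SE 0.11, adjusted p = 0.000106). Its 24 h rise was smaller, 0.36 (SE 0.11, adjusted p = 0.0357), and each of the 6 arrays at 24 h was needed for it (adjusted p up to 0.113 without 1 of them). SLC41A2 fell at 48 h by 0.75 (SE 0.11, adjusted p = 0.000688), and its 24 h change was -0.12 (adjusted p = 0.472), or -0.89 (adjusted p = 0.00335) with the mean of its 2 probe sets. SLC41A3 fell by 0.49 and 1.00 (SE 0.16, adjusted p = 0.0442 and 0.000856). Among zinc exporters of the SLC30 family, SLC30A9 fell at both times (-0.40 and -0.48, adjusted p = 0.00848 and 0.0021). SLC30A2 fell at 48 h (-0.87, adjusted p = 0.0158, and at 24 h -0.31, adjusted p = 0.393, or 0.0424 with the block), and SLC30A7 rose at 24 h (0.50, adjusted p = 0.04).

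**Figure D3:**
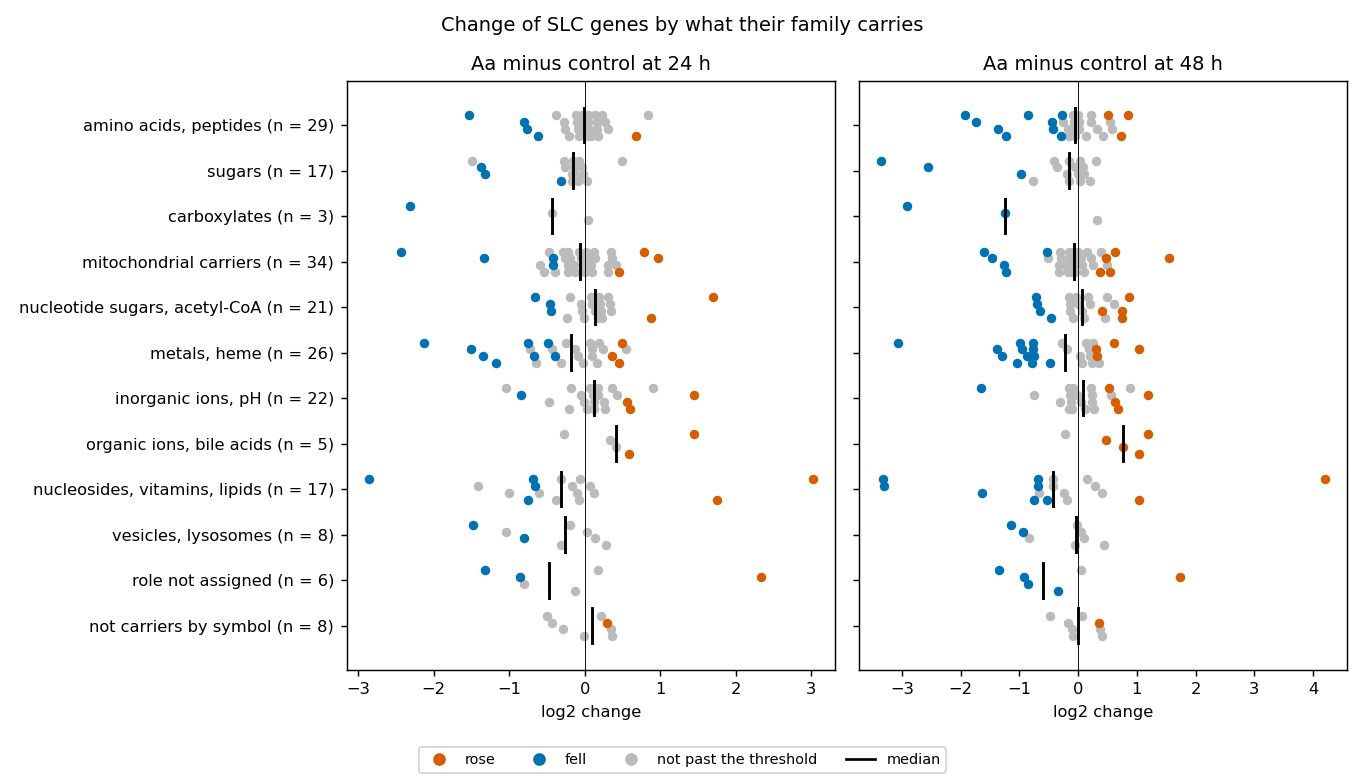
Log2 change with Aa (x axis) at 24 h and at 48 h for the 196 SLC genes, 1 point a gene, in rows by what each family carries; orange points rose, blue points fell, grey points did not pass the threshold, and black lines are group medians. The metal and heme row has 8 blue points at 24 h and 12 at 48 h, and the organic ion row has no blue point.

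Of 17 sugar carriers none rose (limma, 0 also at an unadjusted p under 0.05), and 3 fell at each time (1 and 3, then 1 and 5, with the block). This was 17.6% of them at each time, beside 23.1% and 37.8% of all genes. The median change was -0.16 at both times. SLC60A1, a putative sugar transporter, was at 4.74, 4.79 and 4.82 in 24 h controls and 3.54, 3.20 and 3.65 with Aa. The 48 h values were 5.83, 6.13 and 5.75 in controls and 3.31, 3.39 and 3.36 with Aa. The Aa arrays stayed low while the controls were higher at 48 h than at 24 h, and SLC60A1 fell by 1.32 (SE 0.13, adjusted p = 0.000136) and 2.56 (SE 0.13, adjusted p = 3.37e-06). All its Aa values were under 4, so the size of the fall is uncertain. It passed the filter through its controls, so that it was tested at all depended on the control values.

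SLC2A13, the proton-coupled myo-inositol transporter, was at 7.86, 7.87 and 7.31 in 48 h controls and 2.87, 6.02 and 4.10 with Aa. The Aa arrays were spread over more than the gap that separated the highest of them from the controls. SLC2A13 fell by 3.35 (SE 0.63, adjusted p = 0.00217) at 48 h, a call lost without replicate 1 of every group (adjusted p = 0.0539). Its Aa value of 2.87 lay near the array median, so the size of the fall is uncertain. At 24 h it was at 7.19, 6.82 and 6.67 in controls and 5.24, 6.12 and 4.85 with Aa, and the change of -1.49 did not pass the test (adjusted p = 0.112), but did with the 24 h arrays alone (adjusted p = 0.0225). SLC2A6, a lysosomal hexose transporter, fell by 1.38 (SE 0.29, adjusted p = 0.00625) and 0.97 (SE 0.29, adjusted p = 0.0221). Its 48 h call was lost without Aa replicate 2 or control replicate 1 or 3 at 48 h (adjusted p = 0.0658 to 0.076). SLC50A1 fell at 24 h alone (-0.31, SE 0.10, adjusted p = 0.0431), a call lost when any 1 of 8 arrays was left out, the 6 arrays at 24 h, Aa replicate 1 at 48 h or control replicate 3 at 48 h (adjusted p up to 0.134). The fructose transporter SLC2A5 and the glucose transporter SLC2A3 passed the test at neither time.

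Among 29 carriers of amino acids and peptides, 1 rose and 4 fell at 24 h, and 3 rose and 9 fell at 48 h (2 and 5, then 5 and 10, with the block). Those called were 17.2% and 41.4% of the group, beside 23.1% and 37.8% of all genes. SLC38A11, a sodium-coupled neutral amino acid transporter family member, was at 9.57, 9.80 and 9.65 in 24 h controls and 7.89, 8.73 and 7.81 with Aa. The 48 h values were 8.90, 9.31 and 9.60 against 6.94, 7.99 and 7.12. Replicate 2 was the highest of the Aa arrays at both times and still below the controls. SLC38A11 fell by 1.53 (SE 0.31, adjusted p = 0.00532) and 1.92 (SE 0.31, adjusted p = 0.000922).

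SLC38A6, of the same family, was at 8.97, 9.31 and 9.15 in 48 h controls and 7.08, 7.75 and 7.37 with Aa. It fell by 0.81 (SE 0.17, adjusted p = 0.00763) at 24 h and 1.74 (SE 0.17, adjusted p = 8.36e-05) at 48 h. SLC38A9, the lysosomal arginine sensor upstream of mTORC1, fell at 48 h (-0.44, adjusted p = 0.0221). SLC38A1 and SLC38A2, which import glutamine and other small neutral amino acids, changed little. SLC38A1 fell at 48 h by 0.28 (SE 0.09, adjusted p = 0.0367), a call lost in 5 single-array analyses (adjusted p up to 0.12): without Aa replicate 2 or 3 or control replicate 1 or 2 at 48 h, or control replicate 1 at 24 h. The change of SLC38A2 at 48 h was -0.25 (adjusted p = 0.156, or 0.0138 with the block). Of the 9 SLC38 genes, 2 fell at 24 h and 4 at 48 h, and none rose (limma, 0 also at an unadjusted p under 0.05). With the block, 2 rose at 48 h. The limma calls were 22.2% and 44.4% of the family, beside 23.1% and 37.8% of all genes.

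SLC6A15, a sodium-dependent transporter of branched-chain amino acids, was at 10.87, 10.83 and 10.34 in 48 h controls and 9.34, 9.56 and 9.03 with Aa. It fell by 0.76 (SE 0.17, adjusted p = 0.00973) and 1.37 (SE 0.17, adjusted p = 0.000271), and all 4 of its probe sets were lower at both times. The arginine transporters SLC7A1 and SLC7A2 fell at 48 h (-0.43 and -0.85, adjusted p = 0.00972 and 0.027). SLC43A2, the system L transporter LAT4, was at 6.29, 6.15 and 6.44 in 48 h controls and 7.13, 6.97 and 7.34 with Aa. It rose by 0.85 (SE 0.16, adjusted p = 0.00202) there and not at 24 h (-0.09, adjusted p = 0.727). SLC43A3, of that family, rose at 48 h too (0.51, adjusted p = 0.0318). SLC7A6, a cationic and neutral amino acid exchanger, rose by 0.68 and 0.73 (SE 0.17, adjusted p = 0.0145 and 0.00658). With the mean of its 3 probe sets the changes were 0.21 and 0.19 (adjusted p = 0.602 and 0.591), and the 24 h call was lost without control replicate 1 at 24 h (adjusted p = 0.053). SLC36A4 fell at 24 h (-0.61, adjusted p = 0.0152) and SLC15A4, a lysosomal peptide and histidine carrier, at 48 h (-0.30, adjusted p = 0.0326). Another probe set of each moved the other way.

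The mitochondrial carriers of the SLC25 family exchange metabolites across the inner mitochondrial membrane. Of 34, 3 rose and 4 fell at 24 h, and 5 rose and 5 fell at 48 h (6 and 9, then 7 and 9, with the block). This made 20.6% and 29.4% of the family called, beside 23.1% and 37.8% of all genes. SLC25A11, the oxoglutarate carrier of the malate-aspartate shuttle, was at 10.25, 10.08 and 10.27 in 24 h controls and 8.72, 9.04 and 8.83 with Aa. At 48 h it was at 10.15, 9.86 and 10.27 against 8.50, 8.69 and 8.69. The groups were narrow and did not overlap, and it fell by 1.34 (SE 0.13, adjusted p = 0.000118) and 1.47 (SE 0.13, adjusted p = 3.66e-05).

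The aspartate-glutamate carriers of the same shuttle, SLC25A12 and SLC25A13, fell at 48 h by 1.23 (SE 0.21, adjusted p = 0.0012) and 0.53 (SE 0.10, adjusted p = 0.00201). Their 24 h changes of -0.54 and -0.26 did not pass the test (adjusted p = 0.0851 and 0.0781, the second 0.0358 with the block). SLC25A26, the mitochondrial S-adenosylmethionine carrier, fell at 48 h by 1.26 (SE 0.23, adjusted p = 0.00171), and its 24 h change was -0.60 (adjusted p = 0.0809, or 0.0133 with the block). SLC25A35 was at 6.84, 6.27 and 6.24 in 24 h controls and 4.42, 3.67 and 3.97 with Aa. It fell by 2.43 (SE 0.40, adjusted p = 0.00202) at 24 h and 1.61 (SE 0.40, adjusted p = 0.0101) at 48 h. Its 48 h values were more spread, 5.45, 5.17 and 6.59 against 3.70, 3.79 and 4.89. Both calls of SLC25A35 were lost without replicate 1 of every group (adjusted p = 0.05175 at 24 h and 0.0965 at 48 h). Some of its Aa arrays were under 4 at each time, so the size of the falls is uncertain. SLC25A4, the heart and muscle ADP/ATP carrier, fell at 24 h (-0.42, adjusted p = 0.0234, and at 48 h -0.30, adjusted p = 0.0637, or 0.0384 with the block). SLC25A46, an outer membrane protein of mitochondrial fission, fell at 24 h (-0.43, adjusted p = 0.0175, and at 48 h -0.28, adjusted p = 0.0625, or 0.00467 with the block).

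SLC25A25, a calcium-regulated ATP-magnesium/phosphate carrier, rose. Its 24 h controls were at 6.17, 6.27 and 6.51 and the Aa arrays at 7.43, 7.15 and 7.25. At 48 h the values were 5.96, 6.55 and 6.14 against 7.68, 7.92 and 7.71. The Aa arrays were above the controls at both times, by 0.96 (SE 0.16, adjusted p = 0.00187) and 1.56 (SE 0.16, adjusted p = 8.73e-05). SLC25A33, a mitochondrial pyrimidine nucleotide carrier, rose by 0.46 and 0.63 (SE 0.08, adjusted p = 0.0035 and 0.00034). The other 48 h rises were SLC25A14, SLC25A15 (the ornithine carrier) and SLC25A28 (mitoferrin 2), by 0.38 to 0.54.

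SLC25A16 rose at 24 h by 0.78 (SE 0.13, adjusted p = 0.0018), but 1 of its 3 probe sets was lower by 0.81, and with the mean of all 3 the change was 0.06 (adjusted p = 0.625). The 2 probe sets of SLC25A3, the phosphate carrier, disagreed. The brighter was at 14.16, 14.11 and 14.06 in 24 h controls and 14.10, 14.16 and 14.12 with Aa, with changes of 0.02 and 0.05 (adjusted p = 0.909 and 0.677). The other was higher with Aa by 1.49 and 2.23 (adjusted p = 0.0125 and 0.00096 in the analysis that used it), and with the mean of both the changes were 0.75 and 1.14 (adjusted p = 0.019 and 0.00139). SLC25A5, the main ADP/ATP carrier of dividing cells, had changes of -0.01 and 0.01 (adjusted p = 0.97 and 0.96).

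Inorganic ion and pH carriers numbered 22, of which 3 rose and 1 fell at 24 h and 4 rose and 1 fell at 48 h (5 and 3, then 7 and 3, with the block). Calls made up 18.2% and 22.7% of the group, beside 23.1% and 37.8% of all genes. SLC9A8, the Golgi sodium/proton exchanger NHE8, was at 4.09, 3.99 and 4.04 in 24 h controls and 5.62, 4.88 and 5.96 with Aa. The 48 h values were 3.88, 3.95 and 3.62 against 5.19, 4.73 and 5.10. SLC9A8 rose by 1.45 (SE 0.23, adjusted p = 0.0018) and 1.19 (SE 0.23, adjusted p = 0.00282). Its controls lay at the filter value at 24 h and under it at 48 h. It passed the filter through its Aa arrays, so that it was tested at all depended on the Aa values. The size of its rise is uncertain. SLC4A11, a transporter of the bicarbonate family, rose by 0.59 and 0.52 (SE 0.18, adjusted p = 0.038 and 0.043), and SLC26A11 by 0.55 and 0.63 (SE 0.15, adjusted p = 0.0258 and 0.00898).

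SLC24A1, a potassium-dependent sodium/calcium exchanger, was at 8.07, 8.65 and 7.76 in 48 h controls and 6.14, 7.35 and 6.03 with Aa. It fell at 48 h by 1.65 (SE 0.37, adjusted p = 0.00602), a call lost without replicate 1 of every group (adjusted p = 0.116). Its 24 h change of -1.04 missed the threshold but passed with the block (adjusted p = 0.0671, or 0.00147). SLC26A2, a sulfate transporter, was at 10.45, 10.95 and 10.62 in 24 h controls and 9.57, 10.14 and 9.78 with Aa. It fell by 0.84 (SE 0.17, adjusted p = 0.00616) there, and not at 48 h (-0.10, adjusted p = 0.689). By 48 h its controls had come down to 9.54, 9.73 and 9.75, the level of the Aa arrays (9.39, 9.81 and 9.52). Of the 5 cation-chloride cotransporter family members (SLC12), 0 passed limma's test at either time (1 at an unadjusted p under 0.05, higher at 24 h). Among all genes 23.1% and 37.8% passed.

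Of 5 organic ion and bile acid family members, 2 rose at 24 h and 4 at 48 h, and none fell (limma, 0 also at an unadjusted p under 0.05). With the block, 3 and 4 rose. The limma calls were 40% and 80% of these 5, beside 23.1% and 37.8% of all genes called in either direction. Roles went by family symbol. The SLCO organic anion transporters were therefore counted with the carriers under other names below, where SLCO5A1 fell and SLCO2A1 rose at 48 h. SLC22A15, an organic cation and zwitterion carrier, was at 6.13, 6.89 and 5.89 in 24 h controls and 8.09, 7.29 and 7.87 with Aa. The 48 h values were 6.66, 7.01 and 6.73 against 8.14, 7.77 and 8.08. Replicate 2 had the smallest difference at both times, and the rise was 1.45 (SE 0.26, adjusted p = 0.0034) and 1.20 (SE 0.26, adjusted p = 0.00528). Both calls were lost without replicate 1 or replicate 3 of every group (adjusted p up to 0.111 at 24 h and 0.0979 at 48 h). SLC22A4, a carrier of ergothioneine, rose at 48 h, where controls were at 6.08, 6.42 and 6.54 and Aa arrays at 7.61, 7.54 and 7.03, by 1.04 (SE 0.18, adjusted p = 0.00154). SLC22A5 (OCTN2), the high-affinity carnitine transporter, rose by 0.58 (SE 0.16, adjusted p = 0.0223) and 0.48 (SE 0.16, adjusted p = 0.035). The first call was lost without replicate 1 or 3 of either 24 h group and the second without any 48 h array but control replicate 2 (adjusted p up to 0.0788 and 0.12). SLC10A3 rose at 48 h by 0.76 (SE 0.22, adjusted p = 0.0197), a call lost without Aa replicate 1 or 3 or control replicate 2 at 48 h (adjusted p = 0.0634 to 0.079). Its 24 h change was 0.42 (adjusted p = 0.2, or 0.00379 with the block).

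Nucleotide sugar carriers supply the glycosylation reactions of the Golgi and endoplasmic reticulum. They were grouped by family with acetyl-CoA carriers, and all 20 SLC35 genes tested were taken in, whatever their known substrate. Of 21 members, 2 rose and 3 fell at 24 h, and 4 rose and 4 fell at 48 h (4 and 5, then 6 and 4, with the block). This was 23.8% and 38.1% of the group, near the 23.1% and 37.8% of all genes. SLC35D1, which brings UDP-glucuronic acid and UDP-N-acetylgalactosamine into the endoplasmic reticulum, was at 7.10, 7.85 and 7.43 in 24 h controls and 8.24, 8.67 and 8.10 with Aa. It rose by 0.88 (SE 0.21, adjusted p = 0.0141) and 0.87 (SE 0.21, adjusted p = 0.00942), the first call lost without control replicate 1 at 24 h (adjusted p = 0.0553). Its relative SLC35D2 went the other way, from 9.41, 9.32 and 9.37 in 24 h controls to 8.90, 8.90 and 8.94 with Aa. SLC35D2 fell by 0.45 and 0.65 (SE 0.10, adjusted p = 0.00788 and 0.000735).

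SLC35A3, the UDP-N-acetylglucosamine transporter, fell at 48 h alone, from 9.92, 10.13 and 9.73 to 9.31, 9.34 and 9.04 (-0.70, SE 0.12, adjusted p = 0.00167). SLC35C1, the GDP-fucose transporter, rose at 48 h (0.75, SE 0.20, adjusted p = 0.0156). SLC35H1 fell by 0.66 and 0.71 (SE 0.14, adjusted p = 0.00774 and 0.00312), and SLC35G2 rose at 48 h by 0.74 (SE 0.13, adjusted p = 0.00164). SLC35G1 was at 5.21, 4.20 and 5.42 in 24 h controls and 6.09, 6.69 and 7.16 with Aa, and rose by 1.70 (SE 0.41, adjusted p = 0.0135), a call lost without Aa replicate 3 at 24 h (adjusted p = 0.0554). At 48 h its change was 0.62 (adjusted p = 0.264, or 0.0214 for 0.80 with the mean of its 2 probe sets).

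The probe sets of SLC35F5 disagreed. The one with the highest mean gave a change of 0.23 at 24 h (adjusted p = 0.161) and -0.03 at 48 h, and another gave -1.01 and -1.31. With the mean of all 3 the change at 24 h was -0.52 (adjusted p = 0.0181) and at 48 h -0.78 (adjusted p = 0.00131), so no direction is given for this gene. Several probe sets past the filter measured 98 members, and they shared 1 direction in 59 of these at 24 h and 64 at 48 h. Among called members it was 18 of 24 and 29 of 38.

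Roles were given by family, and 8 members were of families grouped under vesicles and lysosomes. The group includes SLC17A1, a phosphate and urate transporter, and its relative SLC17A3. Of the 8, 2 fell at each time and none rose (limma, 0 also at an unadjusted p under 0.05). This was 25% at each time, beside 23.1% and 37.8% of all genes. With the block, 1 rose and 4 fell at 24 h and 3 fell at 48 h. The 24 h falls were SLC66A3 and SLC17A3, the second given below. SLC66A3, of the family of lysosomal amino acid exporters, was at 8.73, 8.61 and 8.97 in 24 h controls and 7.29, 7.24 and 7.31 with Aa. At 48 h it was at 8.11, 8.40 and 8.69 against 6.87, 7.22 and 7.67. It fell by 1.49 (SE 0.20, adjusted p = 0.000646) and 1.15 (SE 0.20, adjusted p = 0.00143). SLC17A5 (sialin), the lysosomal exporter of sialic acid, fell at 48 h from 11.26, 11.18 and 10.90 to 10.17, 10.33 and 10.00, by 0.94 (SE 0.20, adjusted p = 0.00423). Its 24 h change was -0.32 (adjusted p = 0.282, or 0.0319 with the block).

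Of the 3 monocarboxylate carriers tested, 1 fell at 24 h and 2 at 48 h (2 at each time with the block). Among all genes 23.1% and 37.8% were called. Other genes of the family, SLC16A1 and SLC16A3 among them, had no probe set mapped to 1 gene alone and were not tested. Beside SLC16A4, SLC16A7 (MCT2), a high-affinity pyruvate and lactate carrier, fell at 48 h from 10.37, 10.82 and 10.12 to 8.81, 9.85 and 8.90, by 1.25 (SE 0.28, adjusted p = 0.00634). Its change at 24 h was -0.43 (adjusted p = 0.313, or 0.0327 with the block). The 48 h call of SLC16A7 was lost without replicate 1 or replicate 3 of every group (adjusted p up to 0.105). SLC16A5 passed the test at neither time, but with the mean of its 2 probe sets it was higher at 48 h by 0.60 (adjusted p = 0.00484).

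Of the 6 members with no assigned role, 1 rose and 2 fell at 24 h and 1 rose and 4 fell at 48 h (1 and 3 at 24 h with the block). This was 50% and 83.3% of these 6, beside 23.1% and 37.8% of all genes. SLC67A2 (also known as MFSD9) was at 4.96, 4.75 and 5.00 in 24 h controls and 7.39, 6.68 and 7.65 with Aa. The 48 h values were 6.34, 5.81 and 5.57 against 7.68, 7.46 and 7.82. Aa arrays were the higher throughout, and it rose by 2.33 (SE 0.25, adjusted p = 0.000197) and 1.74 (SE 0.25, adjusted p = 0.000519), 5.04-fold and 3.35-fold. SLC67A1 fell by 1.32 and 1.35 (SE 0.37, adjusted p = 0.0258 and 0.0153) and SLC68A1 by 0.85 at each time (adjusted p = 0.0267 and 0.0182). SLC75A1 fell at 48 h (-0.92, adjusted p = 0.028, and at 24 h -0.81, adjusted p = 0.0659, or 0.00397 with the block). SLC71A1 fell at 48 h by 0.34 (SE 0.12, adjusted p = 0.042), lost without any of 6 single arrays (adjusted p up to 0.157): Aa replicate 1 or 3 and control replicate 1 or 2 at 48 h, Aa replicate 1 and control replicate 2 at 24 h.

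Among the 8 names that are not carriers, 1 rose at each time and none fell (at an unadjusted p under 0.05, limma had 1 lower at 24 h). With the block, 1 rose and 2 fell at 24 h and 2 and 1 at 48 h. The limma calls were 12.5% of these names at each time, beside 23.1% and 37.8% of all genes. SLC4A1AP rose by 0.30 (SE 0.10, adjusted p = 0.0499) and 0.35 (SE 0.10, adjusted p = 0.0166). Its 24 h call was lost when any 1 of 11 arrays was left out, all but Aa replicate 3 at 48 h (adjusted p up to 0.169), and its 48 h call without Aa replicate 3 or control replicate 2 at 48 h (adjusted p = 0.0679 and 0.0537). SLC2A4RG changed by -0.50 at 24 h (adjusted p = 0.159, or 0.00378 with the block), and SLC67A1-AS by -0.29 (adjusted p = 0.149, or 0.0431 with the block). SLC7A6OS changed by -0.43 at 24 h and -0.10 at 48 h, but by 0.56 and 0.74 (adjusted p = 0.0387 and 0.00667) with the mean of its 2 probe sets, so no direction is given for it.

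**Figure D4:**
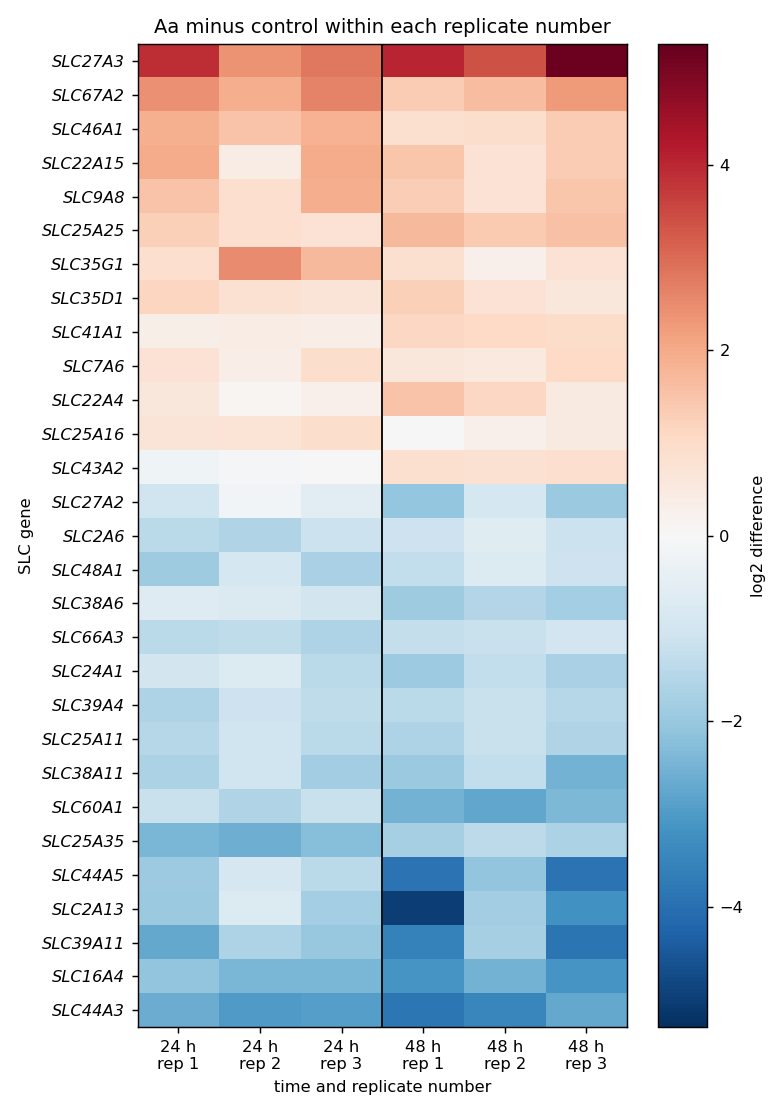
Log2 difference between the Aa and control arrays of the same replicate number (colour) for the 29 SLC genes with the largest rises and falls (rows), at 24 h and 48 h (columns). Genes were chosen as called with groups that did not overlap, which fixes 1 sign over the 3 pairs at the time that chose them. In 28 of them the difference had 1 sign in all 6 pairs, the exception being SLC43A2, and the differences ran from -4.99 to 5.21.

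Arrays of the same replicate number were compared within each time. Every member that rose or fell did so in all 3 pairs, 18 and 32 at 24 h and 28 and 49 at 48 h, a description of the arrays that made the calls. Replicate 2 had the smallest typical fall: the median difference of members that fell at 48 h was -1.11 in replicate 1, -0.79 in replicate 2 and -1.05 in replicate 3. At 24 h it was -0.91, -0.78 and -0.88. For members that rose, the medians were 0.83, 0.52 and 0.73 at 24 h and 0.82, 0.69 and 0.64 at 48 h.

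A list of 42 carriers that the kidney's proximal tubule is known to use had 40 genes on the array and 11 tested. Of these, 1 rose and 1 fell at 24 h, and 3 rose and 1 fell at 48 h (1 and 2, then 3 and 3, with the block). These shares of 18.2% and 36.4% were under or near the 23.1% and 37.8% of all genes. The glucose cotransporters SLC5A1 and SLC5A2, the phosphate cotransporters SLC34A1 and SLC34A3, the proton exchanger SLC9A3 and the cation carriers SLC22A2 and SLC47A1 were under 4 on every array. SLC20A1, a sodium-phosphate cotransporter, rose at 48 h from 11.60, 11.44 and 12.03 to 12.48, 12.27 and 12.34, by 0.67 (SE 0.14, adjusted p = 0.00394). With the mean of its 2 probe sets the change was 0.09 (adjusted p = 0.808). SLC22A4 and SLC22A5, given above, were the other rises.

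SLC4A4, the basolateral sodium-bicarbonate cotransporter of the proximal tubule, was at 12.46, 12.69 and 11.59 in 48 h controls and 11.55, 12.02 and 10.93 with Aa. The groups overlapped because replicate 3 was low in both, while each pair differed the same way. The change of -0.75 had an adjusted p of 0.15, or 8.57e-05 with the block. SLC17A1, a phosphate and urate transporter, had changes of -1.04 and -0.84 (adjusted p = 0.107 and 0.149, or 0.000287 and 0.000381 with the block). Its replicate 1 was low in every group. SLC17A3, its relative, fell at 24 h from 8.49, 9.01 and 8.40 to 7.56, 8.13 and 7.79, by 0.81 (SE 0.26, adjusted p = 0.0494). That call was lost without any of 9 single arrays (adjusted p up to 0.163), all but Aa replicate 2 at 24 h and Aa replicates 1 and 2 at 48 h.

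SLC6A13 (GAT2), a carrier of GABA and betaine, was at 10.55, 10.63 and 9.44 in 48 h controls and 8.88, 9.67 and 8.39 with Aa. It fell at 48 h by 1.23 (SE 0.41, adjusted p = 0.0354), although the groups overlapped. The call was lost without Aa replicate 1 or 3 or control replicate 1 or 2 at 48 h (adjusted p up to 0.132). Its other probe set changed by -0.14 at 48 h (adjusted p = 0.747 in the analysis that used it). SLC20A2, SLC7A7, SLC6A20 and SLC2A5 passed the test at neither time, with changes of -0.27 to 0.22. Of 9 carriers of the distal nephron, SLC4A9 was the one tested, and its changes were 0.07 and -0.09.

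Proteins that work beside carriers, or carry solutes under other names, made a list of 46 genes, of which 33 were tested. At 24 h 2 rose and 2 fell, and at 48 h 3 rose and 6 fell (3 and 7, then 4 and 9, with the block). The shares called were 12.1% and 27.3%, under those of all genes. UCP2, a mitochondrial carrier of the SLC25 type, went from a mean of 12.87 to 11.13 at 24 h and from 12.63 to 10.30 at 48 h. It fell by 1.74 (SE 0.23, adjusted p = 0.000561) and 2.32 (SE 0.23, adjusted p = 7.21e-05). EMB (embigin), a chaperone of monocarboxylate transporters, fell by 0.81 and 1.11 (SE 0.15, adjusted p = 0.00384 and 0.000419). BSG (basigin), the other such chaperone, passed the test at neither time.

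ANKH, an exporter of pyrophosphate and citrate, fell at 48 h by 2.05 (SE 0.22, adjusted p = 0.000116). Its 24 h change of -0.63 missed the threshold but passed with the block (adjusted p = 0.065, or 0.024). FLVCR1, a choline and heme carrier, rose by 1.17 and 0.97 (SE 0.18, adjusted p = 0.00126 and 0.0019). SLCO5A1, of the organic anion transporter family, fell at 48 h by 1.04 (SE 0.16, adjusted p = 0.000829). FXYD2, the gamma subunit of the renal sodium pump, fell at 48 h by 1.50 (SE 0.24, adjusted p = 0.00107). Without probe sets that can match several transcripts its change was -0.39 (adjusted p = 0.393).

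In control cells between 24 h and 48 h, 4 members rose and 1 fell, 2.55% beside 0.5% of all genes (0.232% higher, 0.269% lower). With the block, 31 rose and 18 fell, 25% beside 17.8% of all genes (8.69% higher, 9.09% lower). SLC60A1 rose by 1.12 (SE 0.13, adjusted p = 0.0137), SLC46A1 by 1.05 (SE 0.16, adjusted p = 0.037) and SLC25A16 by 0.78 (SE 0.13, adjusted p = 0.0417). SLC35F5 rose by 0.87 (SE 0.11, adjusted p = 0.0188), and SLC26A2 fell by 1.00 (SE 0.17, adjusted p = 0.0465). When any 1 of the 3 control arrays at 24 h or control replicate 1 at 48 h was left out, 0 members passed in limma (26 to 43 at an unadjusted p under 0.05). Without control replicate 2 at 48 h 1 passed, without control replicate 3 at 48 h 13 did, and without any 1 Aa array but replicate 2 at 24 h 2 did. Each of the 5 calls was lost in at least 4 of these analyses (adjusted p up to 0.179). Among the calls made only with the block, SLC6A13 rose by 1.85 (adjusted p = 0.0726, or 0.0013), SLC27A2 by 1.23 (adjusted p = 0.199, or 0.0086) and SLC4A4 by 0.89 (adjusted p = 0.278, or 0.0013).

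The change with Aa differed between the times for 1 member, SLC60A1, 0.51% of members beside 0.825% of all genes (0.741% with a positive and 0.0834% with a negative difference). Its change was more negative at 48 h than at 24 h by 1.24 (SE 0.18, adjusted p = 0.0192), a call lost when any 1 of 8 arrays was left out (adjusted p = 0.0504 to 0.0675): replicates 1 and 3 of Aa and 1 to 3 of control at 24 h, and replicate 1 of Aa and 1 and 2 of control at 48 h. Its Aa values were 3.20 to 3.65 at both times, near the array median and under the filter value, so the difference is close in size to the rise of its controls (1.12) and its own size is uncertain. This comparison shares its arrays with those above. With the block, 20 members passed, 5 with a positive and 15 with a negative difference, 10.2% of members beside 11% of all genes (6.28% positive, 4.68% negative). SLC44A5 (-1.89, adjusted p = 0.429, or 0.0422 with the block), SLC6A13 (-1.11, adjusted p = 0.415, or 0.0178) and SLC4A4 (-0.87, adjusted p = 0.496, or 0.0058) were among the negative ones, and SLC43A2 (0.94, adjusted p = 0.0894, or 0.0058) and SLC41A1 (0.68, adjusted p = 0.0832, or 0.007) among the positive ones.

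Gene span, the distance between both ends of the annotated gene (GRCh38.p14), was set beside the changes. The 4 members over 300 kb were SLC2A13 (351 kb), SLC39A11 (447 kb), SLC4A4 (509 kb) and SLC44A5 (522 kb). Of these, 1 fell at 24 h and 3 at 48 h, with median changes of -1.45 and -3.19. All 331 genes tested with such a span had medians of -0.54 and -1.05, and 225 of them fell and 7 rose at 48 h. Of the 22 members of 100 to 300 kb, 1 rose and 7 fell at 48 h, beside 116 and 539 of 1593 genes of that span. The 79 members of 30 to 100 kb had 14 rises and 23 falls at 48 h, 46.8% called. Among all 3516 genes of that span more rose than fell, 680 and 551, 35% called. Of the 91 members under 30 kb, 13 rose and 16 fell at 48 h, while of 5345 genes of that span more rose than fell, 1116 and 847.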

How the data were processed

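The 12 Affymetrix arrays measured total RNA of HK-2 cells, 3 for each of 4 groups. The authors normalised them with GCRMA, whose version is not stated, per the submitters' processing notes. The deposited values are log2 intensities, from 0.82 to 16.25. The number of arrays limits the precision.

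Of 54675 probe sets, the 41097 with exactly 1 gene symbol were kept, and 1801 with several and 11777 with none were left out. Symbols were updated through RefSeq (GRCh38.p14), and 54 without a match stayed as they were. Each gene was its probe set with the highest mean, tested if that mean was 4 or more.

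The 10791 genes were fitted with limma 3.58.1 in R 4.3.3 (lmFit, eBayes) as 4 group means, with 8 residual and 2.76 prior degrees of freedom. Tests compared Aa with control at each time, the 2 changes with each other, and the 2 control groups. P-values were two-sided and Benjamini-Hochberg adjusted over all genes. The code was tested on simulated data.

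The members, roles and gene lists were chosen with earlier results of these data known. The rule for named genes took, at each time, the 10 largest rises and falls among called genes with groups that did not overlap, the 5 largest each way in the other 2 contrasts, up to 4 members a role by p, all tested genes of the kidney lists, the 10 brightest members and up to 6 partners. Other members are named to complete a count, chosen once values were known.

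The titles number the replicates 1 to 3 in each group. Deviations from the group means of same-numbered arrays correlated at 0.35 to 0.62 in all 18 pairs, and those of other arrays at -0.49 to -0.01 in 36 pairs. The deviations within a group cancel, so positive values for the same number force negative ones on average for the others. What the number marks is not stated. The main test left it out, and an alternative used it as a block. Results with the replicate number as a block are given where they change a call. Other alternatives were the arrays compared alone, a trended and robust prior, quantile normalisation, centring on the median, other filters, probe sets specific by name, the mean of all probe sets, the symbols as supplied, and leaving out each array or number. Promoter windows came from RefSeq, and no protein sequences were used.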

Additional observations from a re-analysis of the deposited data

Results flagged for a closer look

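SLC60A1 was the 1 SLC gene whose change with Aa differed between 48 h and 24 h by a test of the difference itself. The difference was -1.24 on the log2 scale (SE 0.18, adjusted p = 0.0192 with limma), from -1.32 at 24 h to -2.56 at 48 h, with the change negative in 3 of 3 replicate pairs at each time. The call was lost in 11 of 25 alternative analyses, with adjusted p from 0.00809 to 0.452. Its Aa arrays were at 3.20 to 3.65 at both times, near the array median, and it passed the filter through its controls, which rose by 1.12 from 24 h to 48 h. The difference is close in size to that rise of the controls, and its size is uncertain.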

How the results depend on the processing

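With the replicate number as a block, 30 members rose and 54 fell at 24 h, 43 rose and 63 fell at 48 h, 20 differed between the times and 49 differed between the control groups. Over the analyses that left out arrays or replicate numbers, rises ranged from 5 to 19 and falls from 8 to 36 at 24 h. At 48 h rises ranged from 10 to 31 and falls from 20 to 50. The lowest of these counts came without replicate 1, where 4.97% of all genes were called at 24 h and 14.4% at 48 h. The difference between times ranged from 0 to 8 and the control comparison from 0 to 13. The control comparison gave 0 with limma on the arrays compared alone (43 at an unadjusted p under 0.05) and 3 with the mean of all probe sets. The difference between times gave 2 with a filter of 3 or of 4 on at least 3 arrays, and 0 with a filter of 6, where SLC60A1 was not tested (18 at an unadjusted p under 0.05). With the mean of all probe sets, SLC35F5 at 24 h turned to -0.52, and SLC7A6OS to 0.56 at 24 h and 0.74 at 48 h. The cause of these moves was not tested, beside the fewer arrays of the first.

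Of the named genes' values, 3637 kept their direction and side of the threshold, 267 fell short of it, 46 newly passed it and 3 reversed. Of 36 named calls at 24 h, 10 held in every alternative that measured them, and of 51 at 48 h, 27 did. Leaving out replicate 1 of all groups ended 23 at each time, replicate 3 ended 18 and 11, and replicate 2 ended 6 and 3. The calls of SLC27A3, SLC44A3, SLC16A4, SLC25A11, SLC46A1, SLC60A1, SLC66A3 and SLC67A2 held at both times in every alternative that measured them. SLC60A1 had passed the filter of 4 through its controls alone and was not measured with a filter of 6. Levels under the filter value of 4 lie near the array median of 2.93 to 3.01, which limits the size of changes measured there.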
